A study of Drosophila melanogaster with 12 samples.

Results

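The comparison was between the subjective day and the subjective night of fly heads in constant darkness (DD), defined by the labelled hours as CT2, CT6 and CT10 against CT14, CT18 and CT22. It used 6 of the 12 arrays of the series. The arrays measured transcripts in heads of adult Drosophila melanogaster of the y w strain, which is mutant for yellow (a body colour gene) and for white (an eye colour gene). Flies were entrained to cycles of 12 h light and 12 h dark for 3 days, then sampled through 1 more light/dark day (LD) and through the following day in DD, at intervals of 4 h. Circadian time (CT) counts hours in DD from the moment at which the lights would have come on, and Zeitgeber time (ZT) counts hours in LD from lights-on. Heads were separated from frozen bodies with sieves, and each array held RNA of a pool of about 100 to 200 heads, with 1 pool per time point. The groups were thus subjective day in DD (3 arrays, all in darkness), subjective night in DD (3 arrays, all in darkness), LD day (ZT2, ZT6 and ZT10, in light) and LD night (ZT14, ZT18 and ZT22, in darkness). All of them were y w, so no group had wild-type body or eye colour, and neither age nor sex was given in the labels used here. The hours of a group stood as its replicates, so any change within the day or night counted as spread. Nothing in the labels says how the pools were reared, and the p-values rest only on how far these arrays spread, which may in part be technical. The subjective night also came 12 h later than the subjective day, after longer in darkness, so that circadian phase and time spent in darkness cannot be told apart.

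The fly clock is a transcriptional feedback loop that runs on in darkness. The products of Clk and cyc activate per and tim in the evening, the PER and TIM proteins later enter the nucleus and repress that activation, and light resets the loop through CRY, which sends TIM to degradation. In an interlocked loop, the products of vri and Pdp1 repress and activate Clk. In heads the clock is active in photoreceptors, glia, fat body and small groups of brain neurons, and it drives rhythms in transcripts for vision, detoxification and metabolism.

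The values are log2 expression levels per probe set, a group of short oligonucleotides that together measure 1 transcript, so that a difference of 1 is a ratio of 2. The array medians lay between 5.37 and 5.40. The tissue label was checked against defining markers. The photoreceptor genes trp and chp lay at 9.01 to 9.92 and 8.45 to 9.46 in DD, above 98.2% and 97.4% of the probe sets, and the pan-neuronal gene elav lay at 4.11 to 5.69. The fat body gene Lsp2 (8.66 to 9.08) and the yolk protein gene Yp1 (13.4 to 13.9), which female fat body expresses, were also bright. Markers of other tissues were at mixed levels. The flight muscle genes fln (2.99 to 3.42) and TpnC4 (2.31 to 2.55) were dim, whereas Act88F was brighter than 52.9% of the probe sets. The testis gene dj (2.42 to 2.71) and the accessory gland gene Acp26Aa (2.29 to 2.42) lay near the bottom of the scale, but the testis genes Mst98Ca and Mst87F were brighter than 94.0% and 81.2% of the probe sets and the accessory gland gene SP than 60.0%. The ovary genes Cp36 and Vm26Aa were brighter than 90.8% and 88.9%. ninaE, norpA, Syt1 and Eaat1 were not analysed here.

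Control transcripts showed that the night arrays stood apart from the day arrays in a technical measure too. On this array actin, GAPDH and eIF-4a are each measured near the 5′ end and the 3′ end, and the 5′ minus 3′ signal is lower where the labelled RNA is less complete. It was −1.52, −1.64 and −1.55 log2 at CT2, CT6 and CT10, against −1.89, −2.51 and −2.45 at CT14, CT18 and CT22. The groups did not overlap, with a mean of −1.57 ± 0.06 in subjective day and −2.29 ± 0.34 in subjective night (SD, n = 3 each). The difference was 0.72, and no test is given of it, because the arrays were known to stand apart in this signal when they were chosen. It was 1.06 for GAPDH, 0.54 for actin and 0.55 for eIF-4a, where CT14 stood at −1.18. The first principal component of the DD arrays held 45.9% of the variance and put the day arrays at 13.8 to 14.8 and the night arrays at −19.9 to −10.6. The second held 26.5% and set CT14 (−23.0) apart from CT18 (11.4) and CT22 (7.84). RNA completeness and time of day cannot be told apart by group in these 6 arrays.

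Subjective day and subjective night differed in many transcripts in DD, in both directions. Of 13966 probe sets, 762 (5.46%) were called, which here means an adjusted p under 0.05 in limma's moderated test with Benjamini-Hochberg adjustment over all of them. Among these, 493 (3.53%) were higher in subjective day, for 431 named genes, and 269 (1.93%) were lower, for 217 named genes. The differences were mostly moderate, with a median size of 0.57 log2 in probe sets called higher and 0.58 in those called lower. A difference of at least 1 log2 was seen in 50 probe sets called higher and 24 called lower. The median SD of called probe sets was 0.10 log2 in subjective day and 0.13 in subjective night. The 3 day arrays and the 3 night arrays did not overlap at all in 3711 probe sets (26.6%). The largest difference belonged to a probe set with no gene symbol, which was chosen after its values were seen (−2.13 ± 0.09, adjusted p = 1.91e-04). Its levels were 5.26, 5.21 and 5.13 at CT2, CT6 and CT10 and 7.17, 7.40 and 7.43 at CT14, CT18 and CT22, so the night was higher on every array. The number of calls changed when 1 array was left out, which also makes its group smaller. It was 183, 181 and 176 without CT2, CT6 or CT10. Without CT14, CT18 or CT22 it was 1592, 882 and 266. Whichever array was left out, 130 probe sets were called. Fitted with the LD arrays, as 4 groups over 12 arrays, the same comparison called 131 (0.938%), of which 130 were among the 762.

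**Figure D1:**
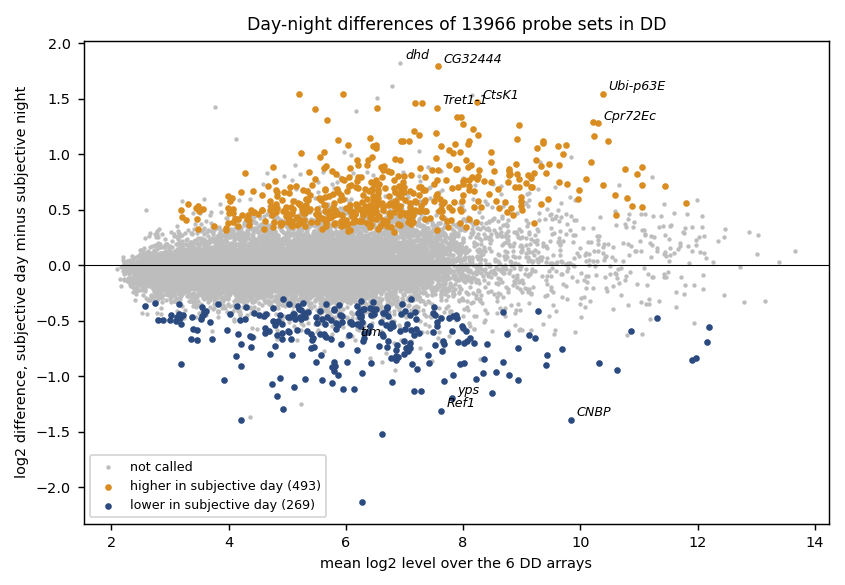
Difference between subjective day and subjective night (vertical axis, log2) against the mean level over the 6 DD arrays (horizontal axis, log2) for 13966 probe sets. Orange points are the 493 called higher in subjective day, blue points the 269 called lower and grey points the rest; dhd, with a difference of 1.82, was not called.

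The genes of largest difference or smallest p toward subjective day were read as single genes, which form no list. Tret1-1 (NCBI gene 36248), a trehalose transporter of the glia that form the blood-brain barrier, had levels of 8.23, 8.43 and 8.15 at CT2, CT6 and CT10, against 6.80, 6.76 and 6.99 at CT14, CT18 and CT22. The day arrays lay far above the night arrays, by 1.42 ± 0.10 log2 (SE), a ratio of 2.68 (limma, adjusted p = 0.00153). Its dimmer probe set differed by 1.54 ± 0.13 (adjusted p = 0.00179). path (NCBI gene 39106), an amino acid transporter, had 8.70, 8.65 and 8.55 in subjective day and 7.15, 7.46 and 7.29 in subjective night, a difference of 1.33 ± 0.10 (adjusted p = 0.00153). The proline-degrading enzyme gene P5CDh1 differed by 1.46 ± 0.17 (adjusted p = 0.00512) and the spermine synthase gene Sms by 1.41 ± 0.11 (adjusted p = 0.00153). These 4 genes kept their calls whichever array was left out.

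Ubi-p63E (NCBI gene 38456), a polyubiquitin gene, had 11.11, 11.25 and 11.12 at CT2, CT6 and CT10 and 9.23, 9.99 and 9.63 at CT14, CT18 and CT22. All night arrays were lower, and their spread (SD 0.38) was wider than that of the day arrays (SD 0.08). The difference was 1.54 ± 0.17 log2, a ratio of 2.91 (limma, adjusted p = 0.00471). The cathepsin gene CtsK1 differed by 1.47 ± 0.18 (adjusted p = 0.00581). Ttd14 (NCBI gene 37119), needed for the movement of the light-activated channel TRPL in photoreceptors, had 7.19, 7.39 and 7.17 in subjective day and 5.90, 5.87 and 5.72 in subjective night. Its groups were more than 1 log2 apart, with a difference of 1.42 ± 0.09 (adjusted p = 0.00153), whereas a dimmer probe set of the same gene differed by 0.07 ± 0.08 (adjusted p = 0.73). Surf4, a receptor for cargo leaving the endoplasmic reticulum, had a smaller but tight difference of 0.95 ± 0.07 (adjusted p = 0.00153). CG32444 had the largest called difference toward day, 1.79 ± 0.17 (adjusted p = 0.00341). CG4364 differed by 1.54 ± 0.12 and CG3061 by 1.31 ± 0.10 (adjusted p = 0.00153 for both). None of these calls was lost when any 1 array was left out.

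Among the genes of largest difference or smallest p in the other direction, several encode RNA-binding proteins. CNBP (NCBI gene 37646), a zinc finger protein that binds nucleic acids, had 9.12, 9.11 and 9.21 at CT2, CT6 and CT10 and 10.70, 10.40 and 10.51 at CT14, CT18 and CT22. The day arrays nearly coincided and all lay below the night arrays, by −1.39 ± 0.09 log2, a ratio of 0.38 (limma, adjusted p = 0.00153). A second CNBP probe set was also called (−0.47 ± 0.10, adjusted p = 0.0332), while the dimmest was not (0.07 ± 0.12, adjusted p = 0.814). Ref1 (NCBI gene 44029), an mRNA export factor, had 6.86, 6.99 and 7.05 in subjective day and 8.14, 8.24 and 8.46 in subjective night, a difference of −1.31 ± 0.10 (adjusted p = 0.00153). The Y-box protein gene yps differed by −1.19 ± 0.14 (adjusted p = 0.00504) and the DEAD-box helicase gene Rm62 by −1.15 ± 0.12 (adjusted p = 0.00391). These calls did not depend on a single array. pAbp, the poly(A)-binding protein gene (−1.03 ± 0.16, adjusted p = 0.0119; −0.16 ± 0.16, adjusted p = 0.652, in its dimmer probe set), and Atx2, whose product promotes translation of per in clock neurons (−1.05 ± 0.16, adjusted p = 0.012), lost theirs without some arrays (adjusted p up to 0.0613 and 0.0577).

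**Figure D2:**
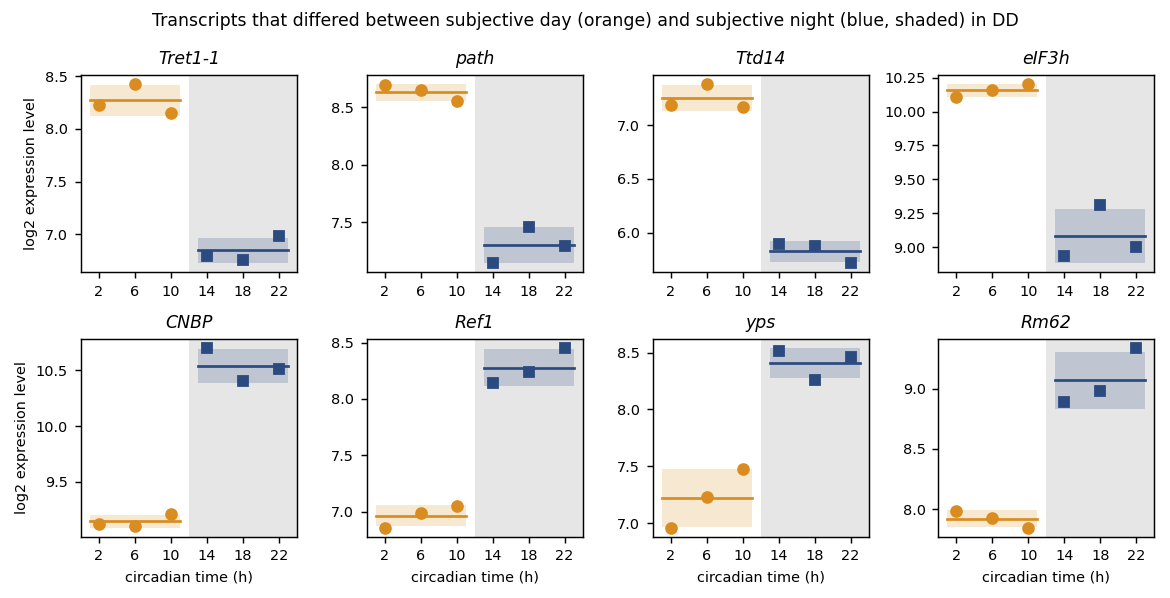
Levels (vertical axes, log2) of Tret1-1, path, Ttd14 and eIF3h (top) and of CNBP, Ref1, yps and Rm62 (bottom) at each circadian hour. Orange circles are subjective day, blue squares subjective night, lines the mean and bands the SD of 3 arrays; the groups did not overlap in any panel.

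side (NCBI gene 43300), a guidance molecule for motor axons, had 5.45, 5.33 and 5.41 at CT2, CT6 and CT10 and 6.44, 6.52 and 6.58 at CT14, CT18 and CT22. The groups lay about 1 log2 apart with little spread in either, and the difference was −1.12 ± 0.08 (limma, adjusted p = 0.00153). The other 5 side probe sets were not called, with differences from −0.38 to −0.03. ckn differed by −1.18 ± 0.13 (adjusted p = 0.00471), and the seizure gene jus by −1.05 ± 0.13 (adjusted p = 0.00682). A second probe set was not called for ckn (−0.36 ± 0.12, adjusted p = 0.126), jus (−0.67 ± 0.19, adjusted p = 0.0844) or SoxN (−0.24 ± 0.11, adjusted p = 0.279). Tomosyn, an inhibitor of vesicle release, had −1.11 ± 0.17 (adjusted p = 0.0124), and 1 more of its 5 probe sets was called (−0.82 ± 0.15, adjusted p = 0.0225). The potassium leak channel gene Ork1 (−1.06 ± 0.17, adjusted p = 0.0126) and the transcription factor gene SoxN (−1.10 ± 0.19, adjusted p = 0.018) were called lower too, SoxN in 1 of its 2 probe sets. Tomosyn, Ork1 and SoxN lost their calls without some arrays, with adjusted p up to 0.0654, 0.0686 and 0.0854. The repressor gene hry had 7.85, 7.91 and 8.05 in subjective day and nearly the same level, 8.79, 8.79 and 8.78, at the 3 hours of subjective night (−0.85 ± 0.08, adjusted p = 0.00353).

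A few genes had differences as large as these without being called, and their night levels were spread widely. dhd, a thioredoxin gene known from the female germ line, had 7.66, 7.33 and 8.54 in subjective day and 7.21, 5.12 and 5.72 in subjective night (1.82 ± 0.51, adjusted p = 0.0869). Acsx3, of the acyl-CoA synthetase family, had 7.48, 7.24 and 7.11 in subjective day and 4.58, 6.25 and 6.49 in subjective night (1.504 ± 0.44, adjusted p = 0.096). The elongation factor gene eEF1alpha2 had 8.83, 9.05 and 8.89 in subjective day and 9.06, 6.66 and 6.46 in subjective night (1.53 ± 0.59, adjusted p = 0.196). Each was called without CT14, where the adjusted p was 0.00254 for dhd, 0.00309 for Acsx3 and 3.01e-05 for eEF1alpha2.

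Gene lists were then read by their counts, with a gene represented by the brightest of its probe sets. Over all 10844 named genes, 3.8% were called higher and 1.6% lower in subjective day, with a median difference of −0.0065 log2. The shares called higher were greatest in the lists of flight muscle, translation and RNA-binding factors, phototransduction and proteasome subunits. The shares called lower were greatest in the lists of neurons and synapses and of translation and RNA-binding factors. In the latter, the 5 members called lower were CNBP, Ref1, Rm62, pAbp and B52. Members and lists were chosen with earlier results of these data known, so the shares are not independent evidence. No test compared the lists with other genes, and the counts are descriptions.

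**Figure D3:**
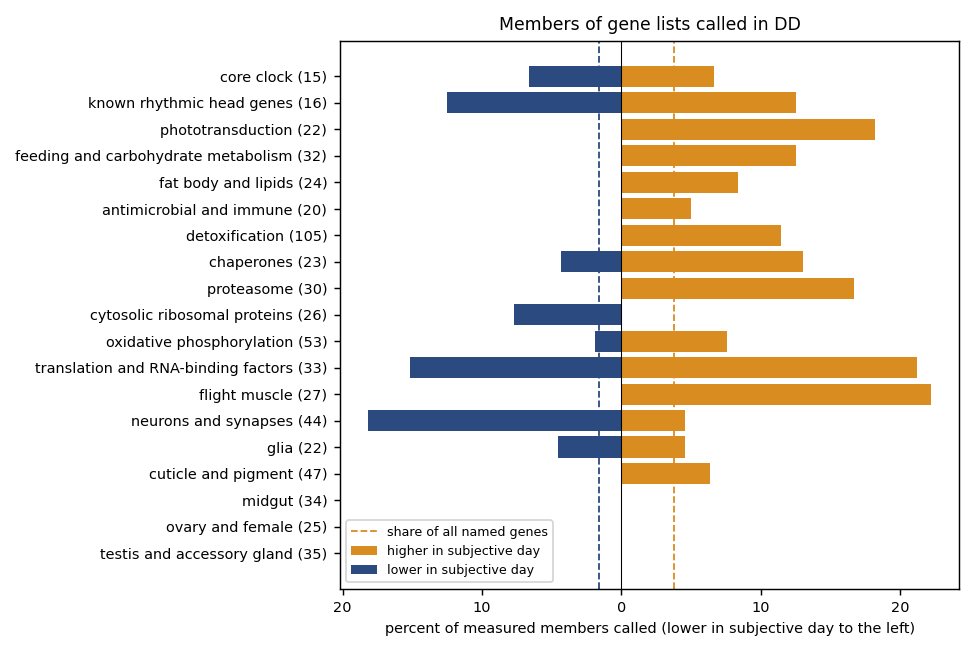
Percent of the measured members of each gene list called higher in subjective day (orange, to the right) or lower (blue, to the left), with the number measured in brackets. Dashed lines mark the shares of all named genes, 3.8% higher and 1.6% lower; midgut, ovary and testis lists had no call.

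Of the core clock transcripts, 1 was called higher and 1 lower in subjective day, and several turned within a group. Of 15 measured members, slmb was called higher and per lower, against 3.8% and 1.6% of all named genes. The list median was −0.09 log2. per (NCBI gene 31251) had 5.91, 5.76 and 5.86 at CT2, CT6 and CT10 and 6.57, 6.27 and 6.28 at CT14, CT18 and CT22. All day arrays lay below all night arrays, by −0.53 ± 0.10 log2, a ratio of 0.69 (limma, adjusted p = 0.0259). The call was lost without CT2, CT6, CT10 or CT22 (adjusted p = 0.0873, 0.119, 0.0986 and 0.0626). slmb (NCBI gene 42504), whose F-box protein sends phosphorylated PER to degradation, had 5.02, 5.05 and 5.03 in subjective day and 4.44, 4.25 and 4.27 in subjective night. Its day arrays were almost equal, and the difference of 0.71 ± 0.08 (adjusted p = 0.00471) held whichever array was left out. In the opposite direction, dco, the kinase that phosphorylates PER, had a difference of −0.50 ± 0.14 that was not called (limma, adjusted p = 0.0805). Without CT14 dco was called (adjusted p = 0.021).

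The other members of the loop were not called. tim (NCBI gene 33571) had 5.57, 5.56 and 6.34 at CT2, CT6 and CT10 and 7.25, 6.58 and 5.65 at CT14, CT18 and CT22. It was highest at CT14 and back near its morning level at CT22, so the groups overlapped (−0.67 ± 0.38, limma, adjusted p = 0.374). vri (NCBI gene 33759) followed the same course, with 6.42, 6.87 and 7.68 in subjective day and 8.37, 7.45 and 6.96 in subjective night (−0.60 ± 0.40, adjusted p = 0.454). Pdp1 had 5.32, 5.59 and 5.62 in subjective day and 6.09, 5.97 and 5.81 in subjective night, with all day arrays below all night arrays (−0.44 ± 0.11, adjusted p = 0.0612). Clk had 4.81, 4.83 and 4.38 in subjective day and 3.87, 4.80 and 4.92 in subjective night, with its lowest and highest values both at night (0.14 ± 0.26, adjusted p = 0.815). Its lowest value stood at CT14, the hour at which tim and vri were highest. cry, the blue-light photoreceptor gene, had 8.38, 8.53 and 8.50 in subjective day and 8.39, 7.64 and 7.59 in subjective night. Its level at CT14 was still that of the day, and the difference of 0.60 ± 0.20 (adjusted p = 0.134) had an adjusted p of 9.95e-04 without CT14. The bHLH genes cyc (0.08 ± 0.10) and cwo (−0.09 ± 0.10), the neuropeptide gene Pdf (−0.07 ± 0.10) and its receptor gene Pdfr (−0.06 ± 0.09) had adjusted p from 0.684 to 0.796. The F-box gene jet and the phosphatase subunit genes tws and wdb had differences of 0.12 ± 0.10, −0.10 ± 0.10 and −0.32 ± 0.09 (adjusted p = 0.571, 0.646 and 0.0963). A dimmer cwo probe set had a larger difference than the brightest, −0.60 ± 0.17 (adjusted p = 0.0937).

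**Figure D4:**
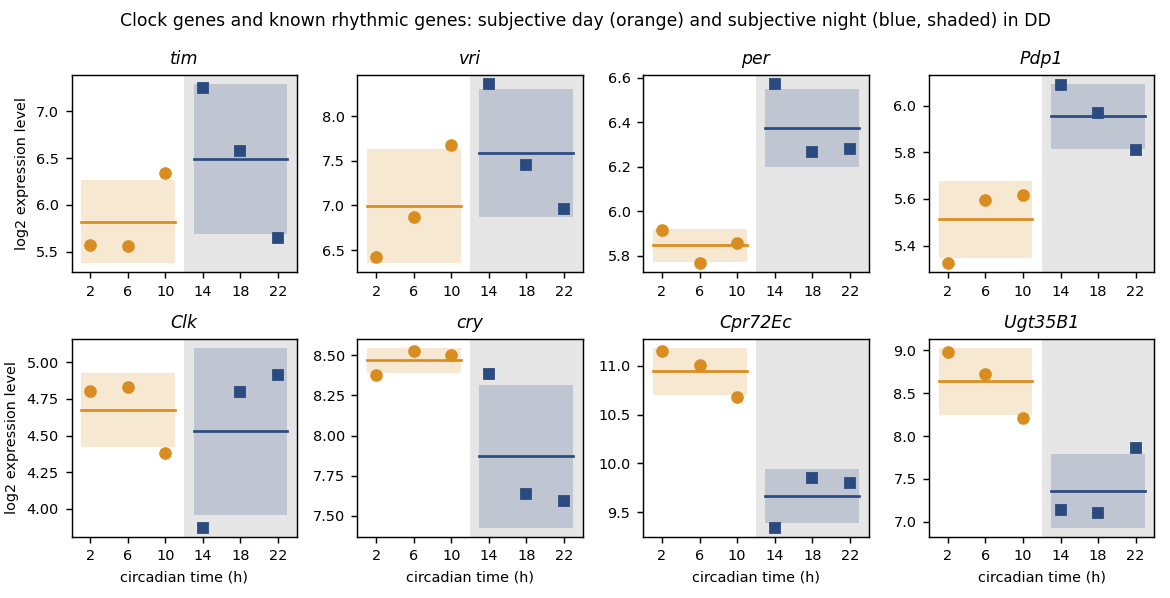
Levels (vertical axes, log2) of 6 clock genes and of the rhythmic genes Cpr72Ec and Ugt35B1 at each circadian hour. Orange circles are subjective day, blue squares subjective night, lines the mean and bands the SD of 3 arrays; tim and vri peak at CT14, and their groups overlap.

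Of 16 measured genes known as rhythmic in fly heads, 2 were called higher and 2 lower in subjective day. The shares of all named genes were 3.8% and 1.6%, and the list median was 0.03 log2. This list may rest in part on these same arrays and is then not independent evidence. Cpr72Ec (NCBI gene 39816), a cuticle protein gene, had 11.15, 11.003 and 10.68 at CT2, CT6 and CT10 and 9.34, 9.85 and 9.80 at CT14, CT18 and CT22. It was highest in the morning, and the difference of 1.28 ± 0.16 log2 (limma, adjusted p = 0.00693) held without each array. Ugt35B1, a glucuronosyltransferase gene, had 8.98, 8.72 and 8.21 in subjective day and 7.13, 7.10 and 7.86 in subjective night (1.28 ± 0.25, adjusted p = 0.0255). Its dimmer probe set differed by −0.26 ± 0.09 (adjusted p = 0.156). The ecdysteroid-inactivating enzyme gene Cyp18a1 (−1.01 ± 0.17, adjusted p = 0.0171) and Gclc, the catalytic subunit of the first enzyme of glutathione synthesis (−0.56 ± 0.10, adjusted p = 0.0203), were lower in subjective day. The calls of Ugt35B1, Cyp18a1 and Gclc were lost without some arrays, with adjusted p up to 0.111, 0.0808 and 0.0901.

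Several genes of the photoreceptors were called higher in subjective day, when the flies were in darkness. Of 22 measured phototransduction genes, 4 were called higher and 0 lower (limma; 7 higher and 0 lower at an unadjusted p under 0.05), and the median difference was 0.19 log2. Shares called over all named genes were 3.8% higher and 1.6% lower. The number called higher in the list was 3 without CT2, CT6, CT10 or CT22 and 8 without CT14. inaD (NCBI gene 37629), the scaffold that holds the light-signalling proteins together, had 8.70, 8.65 and 8.55 at CT2, CT6 and CT10 and 7.54, 7.79 and 7.28 at CT14, CT18 and CT22. The groups were well apart, with a difference of 1.09 ± 0.13 (adjusted p = 0.0053). Arr1 (NCBI gene 35078), an arrestin that switches rhodopsin off, had 11.44, 11.44 and 11.58 in subjective day and 10.39, 10.92 and 10.50 in subjective night (0.88 ± 0.14, adjusted p = 0.0126). ninaB, the enzyme that makes the chromophore from carotenoids, differed by 0.85 ± 0.10 (adjusted p = 0.00539), and boss, a ligand in eye development, by 0.86 ± 0.11 (adjusted p = 0.00618). The call of Arr1 was lost without CT2, CT6, CT10 or CT22 (adjusted p up to 0.0658). The defining marker genes trp (0.50 ± 0.17, adjusted p = 0.15) and chp (0.54 ± 0.17, adjusted p = 0.117) were not called. Mean levels of the list were 7.58, 7.68 and 7.72 in subjective day and 7.55, 7.35 and 7.19 in subjective night, so CT14 lay close to the day. Fewer photoreceptors in a pool and less RNA per photoreceptor cannot be told apart in such bulk samples, which holds for every cell type here.

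A few genes for the use of carbohydrate stores were called higher in subjective day. Of 32 measured genes of feeding and carbohydrate metabolism, 4 were called higher and 0 lower (limma; 9 higher and 1 lower at an unadjusted p under 0.05), with a median of −0.02 log2. For this list and the fat body list below, the shares of all named genes were 3.8% higher and 1.6% lower. The number of carbohydrate genes called higher was 2 without CT2, CT6, CT10 or CT22 and 8 without CT14. Besides Tret1-1 the 4 called genes were glycogen phosphorylase, trehalase and a gluconeogenic enzyme. Glyp (NCBI gene 33386), which breaks down glycogen, had 9.56, 9.96 and 9.79 at CT2, CT6 and CT10 and 8.95, 8.94 and 8.75 at CT14, CT18 and CT22, a difference of 0.89 ± 0.12 (adjusted p = 0.0074). Treh, which splits trehalose into glucose, differed by 0.55 ± 0.10 (adjusted p = 0.0242) and Pepck2, a phosphoenolpyruvate carboxykinase gene, by 0.80 ± 0.16 (adjusted p = 0.0284). The calls of Treh and Pepck2 were lost without CT2, CT6, CT10 or CT22, with adjusted p up to 0.107 and 0.12. Of 24 fat body and lipid genes, ACC, the first enzyme of fatty acid synthesis (0.64 ± 0.10, adjusted p = 0.0117), and the hormone gene Lst (0.49 ± 0.10, adjusted p = 0.027) were called higher, and 0 were called lower (limma; 1 at an unadjusted p under 0.05). A second ACC probe set differed by −0.01 ± 0.09 (adjusted p = 0.964), and the call of Lst was lost without CT2, CT6, CT10 or CT22 (adjusted p up to 0.119). The defining fat body genes Lsp2 (−0.0007), Fbp1 (−0.09) and Yp1 (0.13) did not pass.

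Detoxification genes gave 12 calls, all toward subjective day. Of 105 measured, 12 were called higher in subjective day and 0 lower (limma; 34 higher and 2 lower at an unadjusted p under 0.05), and 77 had a positive difference, with a median of 0.15 log2. Among all named genes 3.8% were called higher and 1.6% lower. The number of these genes called higher in the list was 3, 3 and 2 without CT2, CT6 or CT10 and 5 without CT22. It was 15 without CT14 and 17 without CT18, with 1 called lower in each. GstD1 (NCBI gene 41503), a glutathione transferase gene, had 11.003, 11.16 and 11.15 at CT2, CT6 and CT10 and 10.36, 10.61 and 10.53 at CT14, CT18 and CT22. All day arrays were higher, by 0.60 ± 0.09 (adjusted p = 0.0124). The cytochrome P450 gene Cyp6g1, known for insecticide resistance, differed by 1.12 ± 0.17 (adjusted p = 0.0118), Cyp6a23 by 0.69 ± 0.10 (adjusted p = 0.0118) and the glucuronosyltransferase gene Ugt49C1 by 0.71 ± 0.12 (adjusted p = 0.0149). Each of these lost its call without 1 or more arrays, with adjusted p up to 0.0686 for GstD1, 0.0532 for Cyp6g1, 0.0551 for Cyp6a23 and 0.0742 for Ugt49C1. The day and night arrays did not overlap in 36 members with day above and 4 with day below, where all named genes gave 13.8% and 11.8%. Cyp4g1, the oenocyte enzyme of cuticular hydrocarbon synthesis, varied between day arrays (7.34, 5.71 and 7.56) and was not called (1.39 ± 0.45, adjusted p = 0.126), though it was without CT6 (adjusted p = 0.0244). Of 20 immune genes only Tep4, a complement-like thioester protein gene, was called (1.12 ± 0.14, limma, adjusted p = 0.00618), with a list median of −0.03. A single call among 20 stands beside the 3.8% of all named genes called higher. The NF-kappaB gene Rel (0.60 ± 0.15) and the antimicrobial peptide gene Mtk (−0.46 ± 0.12) were not called (limma, adjusted p = 0.0615 and 0.0626). Rel was called without CT14 or CT18 (adjusted p = 0.024 and 0.026) and Mtk without CT22 (adjusted p = 0.038).

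Proteasome subunits were higher in subjective day in several cases. Of 30 measured, 5 were called higher and 0 lower (limma; 18 higher and 1 lower at an unadjusted p under 0.05), and 3 were called higher without CT2, CT6, CT10 or CT22 and 12 without CT14. By calls, all named genes gave 3.8% higher and 1.6% lower. The day arrays lay above all night arrays in 16 of 30 subunits and below in 1, against 13.8% and 11.8% of all named genes. The median difference was 0.30 log2, and 24 members were positive. Rpt2 (NCBI gene 42828), an ATPase of the regulatory particle, had 6.97, 6.96 and 7.20 at CT2, CT6 and CT10 and 6.21, 5.88 and 5.88 at CT14, CT18 and CT22 (1.05 ± 0.12, adjusted p = 0.00471). Prosbeta2 (NCBI gene 39628), a catalytic subunit, had tight groups of 8.42, 8.40 and 8.49 in subjective day and 7.74, 7.80 and 7.74 in subjective night (0.68 ± 0.07, adjusted p = 0.00391). Among regulatory subunits Rpn3 differed by 0.86 ± 0.10 (adjusted p = 0.00504) and Rpn8 by 0.54 ± 0.10 (adjusted p = 0.0242), and the core subunit Prosalpha3 differed by 0.59 ± 0.12 (adjusted p = 0.0292). Rpn8 lost its call without CT2, CT6, CT10 or CT22 (limma, adjusted p up to 0.105). In those fits only Prosbeta2, Rpt2 and Rpn3 were called higher, so Prosalpha3 lost its call as well.

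Single chaperone genes were called in both directions. Of 23 measured, 3 were called higher and 1 lower, against 3.8% and 1.6% of all named genes, with a median of 0.14 log2. At most 1 was called higher without CT2, CT6, CT10 or CT22, and 7 without CT14. Hsc70-4 (NCBI gene 41840), the constitutive cytosolic Hsp70, had 9.79, 9.78 and 10.04 in subjective day and 10.60, 10.70 and 10.96 in subjective night (−0.88 ± 0.12, limma, adjusted p = 0.00811). The co-chaperone genes DnaJ-1 (0.70 ± 0.13, adjusted p = 0.0237) and Droj2 (0.53 ± 0.10, adjusted p = 0.0251) and the Hsp70 gene Hsc70-1 (0.48 ± 0.08, adjusted p = 0.0188) were higher in subjective day. These 3 lost their calls without some arrays, with adjusted p up to 0.102 for DnaJ-1, 0.114 for Droj2 and 0.093 for Hsc70-1.

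Within the translation machinery, several initiation factor transcripts were called higher in subjective day and several RNA-binding protein transcripts lower. Of 33 measured factors, 7 were called higher and 5 lower, against 3.8% and 1.6% of all named genes. The list median was 0.10 log2. Without CT2 or CT10 there were 4 higher and 3 lower, without CT14 there were 12 higher, and without CT18 there were 8 lower. eIF3h (NCBI gene 45682), a subunit of the complex that binds the small ribosomal subunit, had 10.11, 10.16 and 10.21 at CT2, CT6 and CT10 and 8.93, 9.31 and 9.003 at CT14, CT18 and CT22. The groups were about 1 log2 apart (1.07 ± 0.11, adjusted p = 0.00378). A dimmer eIF3h probe set was called in the opposite direction (−0.54 ± 0.13, adjusted p = 0.0484), so the 2 probe sets of this gene disagree. Of 13 measured eIF3 subunits 5 were called higher and 0 lower (limma; 1 lower at an unadjusted p under 0.05), and 11 had a positive difference. Besides eIF3h these were eIF3e (1.02 ± 0.14), eIF3i (0.89 ± 0.11), eIF3m (0.81 ± 0.10) and eIF3b (0.80 ± 0.11), with adjusted p from 0.00587 to 0.0101. eIF3a (−0.66 ± 0.20, adjusted p = 0.115) and eIF3g1 (−0.50 ± 0.29, adjusted p = 0.385) had the opposite sign and were not called. eIF2beta (0.39 ± 0.08, adjusted p = 0.0356) and the release factor gene eRF1 (0.49 ± 0.11, adjusted p = 0.0429) completed the higher set. The splicing factor gene B52 (−0.97 ± 0.15, limma, adjusted p = 0.0126) joined CNBP, Ref1, Rm62 and pAbp in the lower one. Only CNBP, Ref1 and Rm62 stayed called lower without CT2, CT6 or CT10, so B52 and pAbp lost their calls there. Members of this list were chosen with earlier results of these data known, so its counts are not independent evidence.

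Among 26 cytosolic ribosomal proteins, 0 were called higher (limma; 5 at an unadjusted p under 0.05) and 2 lower, and these were the acidic stalk proteins. RpLP2 (NCBI gene 36855) had 11.45, 11.41 and 11.59 in subjective day and 12.19, 12.17 and 12.65 in subjective night (−0.85 ± 0.14, limma, adjusted p = 0.0137). RpLP1 had a difference of −0.69 ± 0.12 (adjusted p = 0.0188), whereas the list median was 0.15. Both lost their calls without some arrays (adjusted p up to 0.0718 and 0.0909). Of 53 genes of oxidative phosphorylation 4 were called higher and 1 lower, with a median of 0.11. Only 1 was called higher without CT2, CT6, CT10 or CT22, against 10 without CT14. For this list and the ribosomal proteins the shares of all named genes were 3.8% higher and 1.6% lower. ND-51, a subunit of complex I, had 9.72, 9.93 and 9.70 at CT2, CT6 and CT10 and 8.74, 8.86 and 8.58 at CT14, CT18 and CT22 (1.05 ± 0.10, adjusted p = 0.00371). Subunits of the ATP synthase moved in opposite directions, with ATPsynB at −0.94 ± 0.16 (adjusted p = 0.0152), ATPsynO at 0.53 ± 0.09 (adjusted p = 0.0188), ATPsyngamma at 0.72 ± 0.15 (adjusted p = 0.0332) and ATPsynC at 0.93 ± 0.21 (adjusted p = 0.0458). Without single arrays the limma adjusted p of ATPsynB, ATPsynO and ATPsyngamma reached 0.0737, 0.0927 and 0.14. ND-51 alone stayed called higher without CT2, CT6, CT10 or CT22, so ATPsynC lost its call there too.

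Some sarcomere genes were called higher in subjective day, and 3 genes that mark flight muscle were not called. Of 27 measured, 6 were called higher and 0 lower (limma; 9 higher and 0 lower at an unadjusted p under 0.05), with a median of 0.32 log2. Against this, 3.8% of all named genes were called higher and 1.6% lower. The number called higher in the list was 3 without CT6 or CT10 and 4 without CT2 or CT18. It was 2 without CT22 and 7 without CT14. up (NCBI gene 32314), which encodes troponin T, had 7.75, 8.46 and 7.87 at CT2, CT6 and CT10 and 6.58, 6.57 and 6.54 at CT14, CT18 and CT22. The night arrays were nearly equal and the day arrays spread, with CT6 highest (1.46 ± 0.17, adjusted p = 0.0053). A second up probe set, at 3.95 to 4.25, differed by 0.06 ± 0.10 (adjusted p = 0.806). Act87E (1.12 ± 0.14, adjusted p = 0.00686) and Act79B (1.16 ± 0.27, adjusted p = 0.0479) are muscle actins whose probe sets share probes within a family, so they may not be separate results. The tropomyosin gene Tm2 (1.12 ± 0.17, adjusted p = 0.0126), the arginine kinase gene Argk1 (0.54 ± 0.09, adjusted p = 0.0183; 0.36 ± 0.10, adjusted p = 0.0943, in its dimmer probe set) and the titin-like gene sls (0.44 ± 0.09, adjusted p = 0.0321) were the others. Tm2 and Argk1 lost their calls without some arrays (limma, adjusted p up to 0.0522 and 0.0758). sls kept its call in only 1 of the 6 fits that left out 1 array. Only up and Act87E stayed called without CT22, so Act79B lost its call there too. Act88F (5.64, 5.84 and 5.33 in subjective day, against 5.32, 5.38 and 5.57 in subjective night), fln and TpnC4 had differences of 0.18, −0.13 and −0.08 and were not called (adjusted p = 0.515 to 0.674). fln (2.99 to 3.42) and TpnC4 (2.31 to 2.55) lay near the bottom of the scale, so their lack of a call says little. Mean levels of the list were 7.70, 8.05 and 7.68 in subjective day and 7.44, 7.45 and 7.57 in subjective night.

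Of 44 measured neuronal genes, 8 were called lower in subjective day and 2 higher, against 1.6% and 3.8% of all named genes. The median was −0.10 log2. The number called lower changed when 1 array was left out, being 1 without CT2, CT6 or CT10 and 4 without CT22. It was 9 without CT14 and 8 without CT18. The day arrays lay below all night arrays in 18 of 44 members and above in 4, against 11.8% and 13.8% of all named genes. Syn (NCBI gene 41247), the synapsin gene of synaptic vesicles, had 3.19, 3.30 and 3.71 at CT2, CT6 and CT10 and 4.55, 4.33 and 4.41 at CT14, CT18 and CT22 (−1.03 ± 0.14, adjusted p = 0.00845), levels low on the scale of these arrays. elav, the pan-neuronal RNA-binding protein gene, had 4.11, 4.26 and 4.25 in subjective day and 4.89, 5.24 and 5.69 in subjective night (−1.07 ± 0.18, adjusted p = 0.0171). VGlut, the vesicular glutamate transporter gene (−0.73 ± 0.14, adjusted p = 0.0259), EndoA, the endophilin gene of vesicle recycling (−0.60 ± 0.11, adjusted p = 0.0193), ChAT (−0.39 ± 0.08), Synj (−0.44 ± 0.09), lap (−0.57 ± 0.13) and Ace (−0.41 ± 0.09) were the others that fell, the last 4 with adjusted p from 0.0294 to 0.0488. ple, the tyrosine hydroxylase gene of dopamine synthesis, was higher in subjective day (0.63 ± 0.13, adjusted p = 0.0294), as was AP-2alpha (0.45 ± 0.10, adjusted p = 0.0488). The calls of elav, EndoA, VGlut and ple were lost without some arrays, with limma adjusted p up to 0.0798, 0.0916, 0.116 and 0.129. Syn alone stayed called lower without CT2, CT6 or CT10, so ChAT, Synj, lap and Ace also lost their calls there. No member was called higher without CT2 or CT6, so AP-2alpha lost its call as well. The neuronal marker nSyb had a difference of −0.09 (adjusted p = 0.834). Mean levels of the list were 5.59, 5.57 and 5.58 in subjective day and 5.74, 5.67 and 5.74 in subjective night.

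The lists of glia, cuticle and other cell types were set beside the shares of all named genes, 3.8% called higher and 1.6% lower. Of 22 glial genes, Tret1-1 was called higher and the engulfment receptor gene drpr lower (−0.44 ± 0.09, limma, adjusted p = 0.0332), with a list median of 0.12. The dimmer drpr probe set was not called (−0.21 ± 0.08, adjusted p = 0.186), and the call of the brighter one was lost when any array except CT14 was omitted (adjusted p up to 0.124). The defining glial gene repo had −0.62 ± 0.15 (limma, adjusted p = 0.0549) and was called without CT14 (adjusted p = 0.017). Of 47 cuticle and pigment genes 3 were called higher and 0 lower (limma; 4 lower at an unadjusted p under 0.05), namely Cpr72Ec, ple and t. t (NCBI gene 31863), the tan hydrolase that recycles histamine in photoreceptors, had 8.38, 8.64 and 8.67 at CT2, CT6 and CT10 and 7.71, 7.19 and 6.79 at CT14, CT18 and CT22 (1.33 ± 0.21, adjusted p = 0.0134, up to 0.0704 without single arrays). Lists of 34 midgut, 25 ovary and female, and 35 testis and accessory gland genes had 0 called in limma, with 0, 2 and 2 members at an unadjusted p under 0.05 and medians of 0.05, 0.01 and −0.14. In lists of this size those shares would give few calls, so 0 is not read as a result about these tissues. Single arrays stood out within these lists. The midgut list had a mean of 6.10 at CT2, against 5.66 to 5.77 on the other DD arrays, with the protease gene Jon25Biii at 7.29 at CT2 and 4.62 to 4.82 elsewhere. The testis and accessory gland list had a mean of 4.64 at CT22, against 4.29 to 4.37 on the others, with Mst57Da at 7.08 at CT22 and 5.44 to 5.76 elsewhere. What part these genes of other tissues had in the other results was not tested.

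The day-night differences of darkness were then compared with those of the preceding light/dark day. The difference in DD minus that in LD passed the test in 299 probe sets (2.14%) in a fit of 4 groups over all 12 arrays, with DD above LD in 189 (1.35%) and below in 110 (0.788%). Of these, 239 were among the 762 called in DD. The count of the comparison changed when 1 array was left out. It was 1, 1 and 2 without CT2, CT6 or CT10, and 340, 223 and 19 without CT14, CT18 or CT22. Without ZT2, ZT6 or ZT10 it was 157, 1349 and 371, and without ZT14, ZT18 or ZT22 it was 29, 12 and 15. path had LD levels of 7.08, 8.40 and 7.37 at ZT2, ZT6 and ZT10 and 8.50, 8.70 and 8.76 at ZT14, ZT18 and ZT22. Its difference was thus 1.33 in DD and −1.04 in LD, and these differed by 2.37 ± 0.36 (limma, adjusted p = 0.021). CNBP had −1.39 in DD and 0.87 in LD (−2.26 ± 0.36, adjusted p = 0.0217). Of the clock genes only slmb was called, with 0.71 in DD and −0.27 in LD (0.98 ± 0.17, adjusted p = 0.0275). per had −0.53 in DD and −0.31 in LD (adjusted p = 0.675), and tim had −0.67 in DD and −1.21 in LD (adjusted p = 0.735). In LD alone 1 probe set (0.00716%) was called, that of CG17298 (2.20 ± 0.22 log2 for day minus night, adjusted p = 0.00856), which was chosen after its values were seen and had a difference of 0.20 ± 0.08 in DD.

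Most of the transcripts called in DD had the opposite sign in LD. Of the 762, 701 (92.0%) did, and 61 (8.0%) had the same sign, where 36.1% of all probe sets did. The probe sets called higher in subjective day averaged 6.98, 7.02 and 7.01 at CT2, CT6 and CT10 and 6.33, 6.42 and 6.34 at CT14, CT18 and CT22. In LD they averaged 6.34, 6.97 and 6.73 at ZT2, ZT6 and ZT10 and 7.04, 6.90 and 6.90 at ZT14, ZT18 and ZT22. ZT2 alone of the LD arrays was at the level of the subjective night. It also had the lowest 5′ minus 3′ signal in LD, −2.02 against −1.76 to −1.52 on the other LD arrays. ZT2 lay beyond all other LD arrays on the side of the subjective night in 401 (81.3%) of the probe sets called higher and 216 (80.3%) of those called lower, against 33.5% and 33.7% of all probe sets of the same sign. Without ZT2, 240 (31.5%) of the 762 had the same sign in both days, against 44.7% of all probe sets with a positive difference in DD and 45.9% of those with a negative one. Within the subjective night, CT14 had the highest 5′ minus 3′ signal (−1.89, against −2.51 at CT18 and −2.45 at CT22). For GAPDH alone it was −2.54, against −2.65 and −2.55. The probe sets called higher had their lowest mean at CT14 (6.33, against 6.42 and 6.34). Those called lower averaged 6.43, 6.47 and 6.56, so there CT14 lay nearest to the day arrays (5.80 to 5.87). The part of RNA completeness in these orders was not tested.

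**Figure D5:**
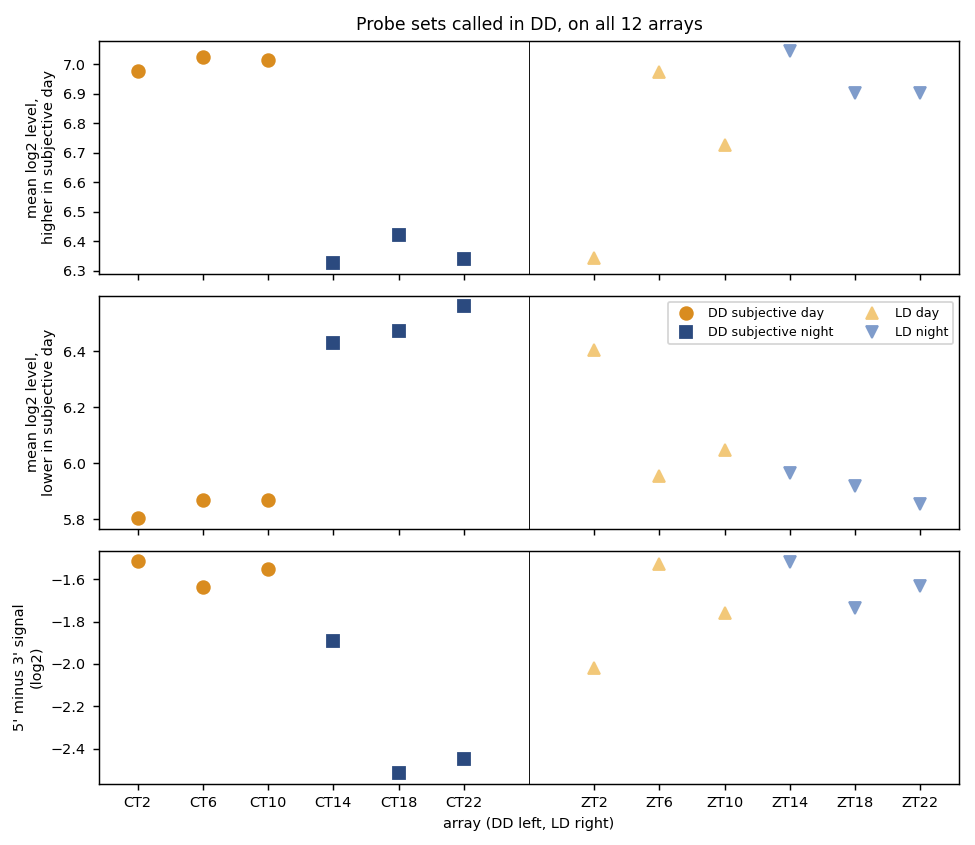
Mean log2 level of the 493 probe sets called higher in subjective day (top) and the 269 called lower (middle), and the 5′ minus 3′ signal of the control transcripts (bottom, log2), on each of the 12 arrays. CT14, CT18, CT22 and ZT2 stand apart from the other arrays in all panels.

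When the 5′ minus 3′ signal entered the fit as a covariate, 768 (5.5%) of the probe sets were called in DD, 370 higher and 398 lower, of which 213 were among the 762. The share called higher was then 48.2%, against 64.7% without the covariate. All 762 kept their sign, as did 9383 of all 13966 probe sets. The 762 had been called on these same arrays, so their signs are no independent check. CNBP (−1.70, adjusted p = 0.0044), Ubi-p63E (2.29, adjusted p = 0.0044), path (1.62, adjusted p = 0.00696), Tep4 (1.71, adjusted p = 0.0044), Tret1-1 (1.53, adjusted p = 0.0112), inaD (1.14, adjusted p = 0.0391) and per (−0.91, adjusted p = 0.0167) remained called in limma. Rm62 (−0.87), slmb (0.51), Glyp (0.85), elav (−0.41), DnaJ-1 (0.19) and ATPsyngamma (0.14) did not (adjusted p = 0.0575 to 0.796). Clk was called higher in subjective day with the covariate (1.31, adjusted p = 0.0277), as was Acsx3 (3.55, adjusted p = 0.00472). Of the neuronal list 1 member was called lower and 0 higher with the covariate in limma, and of the chaperones 1 higher and 4 lower, whose median turned to −0.23. The phototransduction list, with 4 higher and 1 lower, had a median of −0.09. The proteasome list had 2 higher and 3 lower with a median of 0.28, and the detoxification list 14 higher and 2 lower with 0.31. Among genes not called with or without the covariate, eEF1alpha2 (−1.33), dhd (−0.44) and cry (−0.28) turned to lower values in subjective day. The comparison of DD with LD had 0 calls with the covariate in limma, where 958 probe sets had an unadjusted p under 0.05, against 2633 without it.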

How the data were processed

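Heads of y w flies were profiled on Affymetrix arrays, 1 array per time point, and the labels put 3 DD arrays in subjective day and 3 in subjective night. The deposited values are log2 expression levels per probe set that the authors made with RMA, per the submitters' processing notes. Neither the version nor the set of arrays normalized together is given in the sources used here. Precision is limited by the number of arrays. Of 14010 probe sets, 44 control probe sets were set aside and 13966 tested without a filter. Of the tested probe sets 12443 had a single gene symbol, 327 had several and 1196 had none. Symbols were updated through RefSeq identifiers.

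Differences were tested with limma 3.58.1 in R 4.3.3 (lmFit and eBayes, 4 residual degrees of freedom), with Benjamini-Hochberg adjustment over all tested probe sets and a threshold of 0.05. A fit of 4 groups over 12 arrays (8 residual degrees of freedom) tested the DD difference minus the LD difference. The exact permutation test planned for the 5′ minus 3′ signal is not given, since its separation was known when the arrays were chosen. The fits were first tested on simulated data.

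Named genes were all core clock members, the genes of largest difference among called probe sets (up to 12 per direction) and among those whose groups did not overlap at a mean of at least 6 log2 (up to 12 per direction). They also included the 5 of smallest p per direction, up to 4 members of smallest p and the 1 of largest difference in each list, and the 5 of smallest p in the comparison with LD. eIF3 subunits other than eIF3h, eIF2beta, eRF1, B52, Prosalpha3, ATPsynC, Act79B, sls, ChAT, Synj, lap, Ace and AP-2alpha were named after their values were seen. A gene stood by its brightest probe set in lists. Members and lists were chosen with earlier results of these data known. Alternatives changed the normalization, filter, variance model, probe sets per gene, covariate, shape of the contrast and arrays used. Rhythm fits over the hours and sequences were not used here.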

Additional observations from a re-analysis of the deposited data

Results flagged for a closer look

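The day-night difference in DD differed from that in LD in 299 probe sets by a test of the difference itself (limma, 4 groups, adjusted p under 0.05), which marked each of the following genes. Values are the log2 DD difference minus the log2 LD difference. Among genes with a larger value in DD, Ubi-p63E had 3.11, path 2.37, CG4364 2.24 and CtsK1 2.23. The Tret1-1 probe sets had 2.25 and 2.08, P5CDh1 had 2.18, Ttd14 2.06 and Sms 1.88. eIF3h had 1.65, ND-51 1.57, Tep4 1.56, Surf4 1.41 and Elal 1.37. Syn2, with the smallest p, had 1.32, and inaD had 1.26. Pepck2 had 1.19, kek4 1.13, the sugar transporter gene pippin 1.00, Rel 0.99, slmb 0.98 and Cyp6a23 0.79.

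Among genes with a smaller value in DD, CNBP had −2.26, Ref1 −1.83 and CG14989 −1.83. pAbp had −1.69, CG13551 −1.68, side −1.60 and Rm62 −1.57. jus had −1.49, ckn −1.42, Ork1 −1.34, elav −1.34, Syn −1.34 and retinin, a corneal protein gene, −1.32. The 5′ minus 3′ signal was low at CT14, CT18, CT22 and ZT2, and none of the 5 named genes of smallest p stayed under the threshold with that signal as a covariate. Its part in these differences cannot be told apart from that of the light regime in 12 arrays.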

How the results depend on the processing

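No named difference that was called in the main fit or under an alternative changed sign between that alternative and the main fit. The differences of 12 named probe sets changed sign where neither fit called them. With the 5′ minus 3′ covariate these were cyc (−0.14), tws (0.17), eEF1alpha2 (−1.33), LysX (−0.16), Mst57Da (0.42), Pdf (0.20), Pdfr (0.061), Cp7Fc (0.0043), cry (−0.28), jet (−0.054) and dhd (−0.44). Without CT18 and CT22 they were cyc (−0.042), tws (0.050), eEF1alpha2 (−0.13), Mst57Da (0.12), Pdf (0.093) and Pdfr (0.031). Leaving out single arrays gave −0.015 to 0.14 for cyc, −0.80 to 0.023 for Mst57Da, −0.18 to 0.34 for Clk, −0.15 to 0.016 for Pdf and −0.10 to 0.024 for Pdfr. Of these, cry, dhd and eEF1alpha2 were called higher without CT14 (limma, adjusted p = 9.95e-04, 0.00254 and 3.01e-05), though their sign with the covariate was the opposite. The medians of 9 of 19 gene lists changed sign under 1 or more alternatives. With the covariate 7 of them did, among them the chaperones (−0.23) and phototransduction (−0.09). The 762 calls in DD (493 higher, 269 lower) came to 131 (74 and 57) in the fit of 4 groups over 12 arrays, 20 (16 and 4) with a 24 h cosine peaking at midday instead of the step, and 1755 (884 and 871) without CT18 and CT22, where the lone night array was assumed to vary like the others. With 1 probe set per gene 173 were called lower. Leaving out 1 array at a time gave 176 to 1592 calls, 124 to 1025 higher and 40 to 567 lower. With the 5′ minus 3′ covariate 48.2% of calls were higher. Of 121 named probe sets, 39 lost their call with that covariate, 7 gained one, and 64 kept their sign and their side of the threshold.

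The 299 probe sets of the comparison with LD (189 above, 110 below) came to 0 (0 and 0; limma, 958 at an unadjusted p under 0.05) with the covariate. Leaving out 1 array at a time gave 1 to 1349 calls, 1 to 810 above and 0 to 539 below. Between subjective day and subjective night, which share no hour, no paired analysis was possible because the labels give no replicate numbers. In the comparison with LD, with the hours that LD and DD arrays share as a block, the count was 114 (91 and 23). The difference in 5′ minus 3′ signal lay between 0.60 and 0.91 when single arrays were left out. The causes of these changes were not tested. With 1 array per hour, differences within the day or night cannot be told apart from technical spread.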

Other observations

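Of the 61 probe sets called in DD with the same sign in LD, a few belonged to named genes that were chosen after their values were seen. noc, a zinc finger gene of head and appendage development, had 4.56, 5 and 4.82 at CT2, CT6 and CT10 and 5.85, 5.80 and 5.81 at CT14, CT18 and CT22 (−1.03 ± 0.11 log2, limma, adjusted p = 0.0047). Its difference in LD was −0.14 ± 0.21. Pfrx, the enzyme that makes and breaks down fructose 2,6-bisphosphate, had 9.24, 9.37 and 9.33 in subjective day and 9.99, 10.08 and 10.13 in subjective night (−0.75 ± 0.08, adjusted p = 0.0039), and −0.06 ± 0.14 in LD. The odorant-binding protein gene Obp99a had −0.75 ± 0.17 in DD (adjusted p = 0.047) and −0.56 ± 0.28 in LD. Obp99a kept its DD call in only 1 of the 6 fits that left out 1 array, whereas noc and Pfrx kept theirs in all 6. With the 5′ minus 3′ covariate the DD difference of Obp99a was −0.02 (limma, adjusted p = 0.977). In that fit noc stayed called (adjusted p = 0.0409) and Pfrx did not (−0.59, adjusted p = 0.0615). None of these 3 was called in LD (adjusted p = 0.886 to 0.992).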
